A study of Mus musculus with 12 samples.

Results

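The genes described here are those whose change between day and night differed between Crx-/- and control pineal glands. For each probe set the day to night change in control glands was subtracted from that in Crx-/- glands, and this difference, the interaction, was tested on all 24275 probe sets of 45101 that passed a filter on dim signals. A positive interaction means that the night value stood higher over the day value, or less far below it, in Crx-/- glands than in control glands. All 12 arrays of the series entered, 3 in each of 4 groups: Crx-/- at ZT20, Crx-/- at ZT6, control at ZT20 and control at ZT6. Zeitgeber time (ZT) counts hours from lights on, so in the light cycle given (12 h each of light and dark) ZT20 lies in the night and ZT6 in the day. The labels give strain 129sv for both genotypes, animals of either sex older than 2 months, and each array as a separate biological replicate. They do not say how many glands went into an array, how the Crx allele was made or whether the control animals were littermates. With 2 times a day, a rhythm is seen here only as the difference between these times, and a shifted peak and a changed height cannot be told apart.

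The pineal gland secretes melatonin at night. The clock of the suprachiasmatic nucleus drives noradrenaline release onto the gland in darkness, and in rodents the resulting rise of cAMP switches on genes such as Aanat, the penultimate enzyme of melatonin synthesis. Pinealocytes also carry their own circadian clock and share many genes with retinal photoreceptors, and Crx is a homeodomain transcription factor of both cell types. In whole glands, fewer cells of a type and less RNA per cell cannot be told apart.

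Because 1 array, labelled as the third replicate of control ZT20, resembled Crx-/- arrays more than its own group, results are given with all 12 arrays and with the 11 others. The correlation of that array across probe sets was 0.916 and 0.923 with the other control ZT20 arrays, against 0.964 to 0.987 with the Crx-/- ZT20 arrays and 0.960 to 0.966 with the Crx-/- ZT6 arrays. The 10 other replicate pairs lay between 0.976 and 0.989. It also had the highest ratio of 5' to 3' probe sets for Gapdh, 0.691, and for actin, 0.337. The part these ratios and this array's likeness to Crx-/- play in the calls was not tested. Without it, control ZT20 rests on 2 arrays, and this small number limits the precision. The p-values measure the spread between these arrays only. The pinealocyte markers Tph1, Aanat, Ddc, Crx, Otx2, Sag, Pdc and Isl2 were all among the probe sets tested. Crx itself had log2 signals of 12.93, 13.03 and 13.06 at ZT20 and 12.68, 12.87 and 12.56 at ZT6 in Crx-/- glands, against 13.18, 13.27 and 13.02 at ZT20 and 12.69, 12.66 and 12.75 at ZT6 in control glands. The genotypes overlapped at ZT6, and at ZT20 they overlapped through control ZT20 replicate 3 (13.02), without which both control arrays lay above the Crx-/- ones. Where the probe set lies relative to the deleted part is not given in the sources used here, so it does not check the labels.

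With all 12 arrays few rhythms differed. Limma called 14 probe sets at an adjusted p under 0.05 (0.0577% of those tested), 5 of them with a higher and 9 with a lower interaction (0.0206% and 0.0371%). They fell into 7 lost, 4 gained, 1 reversed and 2 damped rhythms. A rhythm was taken as present in a genotype where its own night minus day change passed limma's threshold, which was so for 302 probe sets in Crx-/- glands (1.24%) and 2986 in control glands (12.3%). In Crx-/- glands 150 were higher and 152 lower at night (0.618% and 0.626%), and in control glands 1359 and 1627 (5.6% and 6.7%). The 10 named genes among the 14 calls were Dbp, Sphk2, Cpz, Col1a1, Mpp2, Tax1bp3, H2bc21, Riox2, Dclk1 and Ddc. For Dbp, Col1a1, Riox2, Dclk1 and Ddc the called probe set was not the brightest of the gene, and these are described because they were called, after their values were seen. The other 4 probe sets have no single gene symbol in the platform annotation. At an unadjusted p under 0.05 there were 2898 probe sets. The last probe set inside the threshold had an adjusted p of 0.0456 (Ddc) and the first outside it 0.0513 (Ppm1h). The 14 calls depended on each group: leaving out a further array gave between 0 calls (without control ZT6 replicate 1 or 3, Crx-/- ZT6 replicate 1 or 2, or Crx-/- ZT20 replicate 2) and 25 (without Crx-/- ZT6 replicate 3), with 11 and 5 calls without control ZT20 replicates 1 and 2, 2 without control ZT6 replicate 2, and 1 and 5 without Crx-/- ZT20 replicates 1 and 3.

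Without control ZT20 replicate 3, 970 probe sets were called (4% of those tested). Their interaction was higher for 357 (1.47%) and lower for 613 (2.53%), and 474 differed by at least 1 on the log2 scale. All 14 calls of the 12-array fit were called again with the same sign, and they made up 1.44% of the 970. In the other direction, 960 of the 970 had the same sign with 12 arrays and 611 an unadjusted p under 0.05. Across the 970 the median size of the interaction was 0.98 (median SE 0.19) with 11 arrays and 0.74 (median SE 0.29) with 12. Control ZT20 replicate 3 lay nearer to the Crx-/- ZT20 mean than to the mean of the other control ZT20 arrays in 82.2% of the 970, and in 65.6% of all probe sets tested. Fits without a further control ZT20 array leave 1 array in that group, which is assumed to vary like the other groups. Their SE is larger by design, and fewer probe sets were called in them. Estimates moved as well: the interaction of Adgrb3 (2.45) was 1.88 without control ZT20 replicate 1 and 3.03 without replicate 2. The part of each in the fall of the count was not tested. The number of calls was 468, 556 and 624 without control ZT6 replicates 1, 2 and 3, and 557 without Crx-/- ZT6 replicate 1.

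The scaling of the arrays set the split between higher and lower interactions. Of the calls with 11 arrays 36.8% were higher on quantile-normalized signals, 50.2% when arrays were scaled to a common trimmed mean, and 89.4% on the signals as deposited. Over all tested probe sets the median interaction with 11 arrays was 0.00, 0.08 and 0.38 under these scalings in turn. The interaction of every probe set called with 11 arrays kept its sign under all 3. On deposited signals 13 of the 14 calls with 12 arrays were lost, all but Ddc (limma, adjusted p = 0.078 to 0.9998). Of 72 named calls with 11 arrays 34 were lost (adjusted p = 0.0518 to 0.583), which among the genes described below were those of Sphk2, the brighter Dbp probe set, Tax1bp3, Mpp2, Gngt1, Chrna6, Gjd2, Dusp4, Faah, Per1, Arntl, Cngb3, Arr3, Bsn, Rimbp2, Neurod2, Gabra3, Col1a1, Col1a2, Col3a1, Nefh, Rbfox1, Gja1, Slc1a2, Aqp1 and Pcna. The calls of Irs2, Opn3, Pde6g, Vldlr and Cdkl3, given below, are not among these 72. They were not followed singly on deposited signals or in fits without a further array. With all 12 arrays 35.7% of the calls were higher, 37.5% of 8 calls with a common trimmed mean and 3 of 4 calls on deposited signals.

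Lost rhythms were the largest class without control ZT20 replicate 3. Of the 970 probe sets 761 (78.5%) changed between day and night in control glands only, 79 in Crx-/- glands only (gained), 29 in both in opposite directions (reversed), 64 in both but less in Crx-/- glands (damped) and 13 in both but more in Crx-/- glands (amplified). The last 24 were called for the interaction with neither genotype's change past its own threshold. Among the lost, 485 were higher at night in control glands and 276 lower. Their median day to night change was 0.15 in size in Crx-/- glands and 0.94 in control glands on the log2 scale. In Crx-/- glands the 95% interval of the change lay within 1 either side of 0 for 718 of the 761. The classes describe values that the interaction already used and have no test of their own. The share of lost rhythms was 64.4% when a rhythm needed an adjusted p under 0.2 and 39.0% when it needed a change of at least 1.

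A change past the threshold in control glands alone was mostly not called as a difference between the genotypes. With 11 arrays limma called a night minus day change for 1134 probe sets in Crx-/- glands (4.67%) and 4823 in control glands (19.9%), at a median SE over all tested of 0.15 in Crx-/- and 0.17 in control glands. In Crx-/- glands 545 were higher and 589 lower at night (2.25% and 2.43%), and in control glands 2461 and 2362 (10.1% and 9.73%). Of all these, 16.3% in Crx-/- and 18.0% in control glands were called for the interaction, and 3394 passed in control glands only without an interaction call. Of the 668 that passed in both genotypes 639 changed in the same direction.

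**Figure D1:**
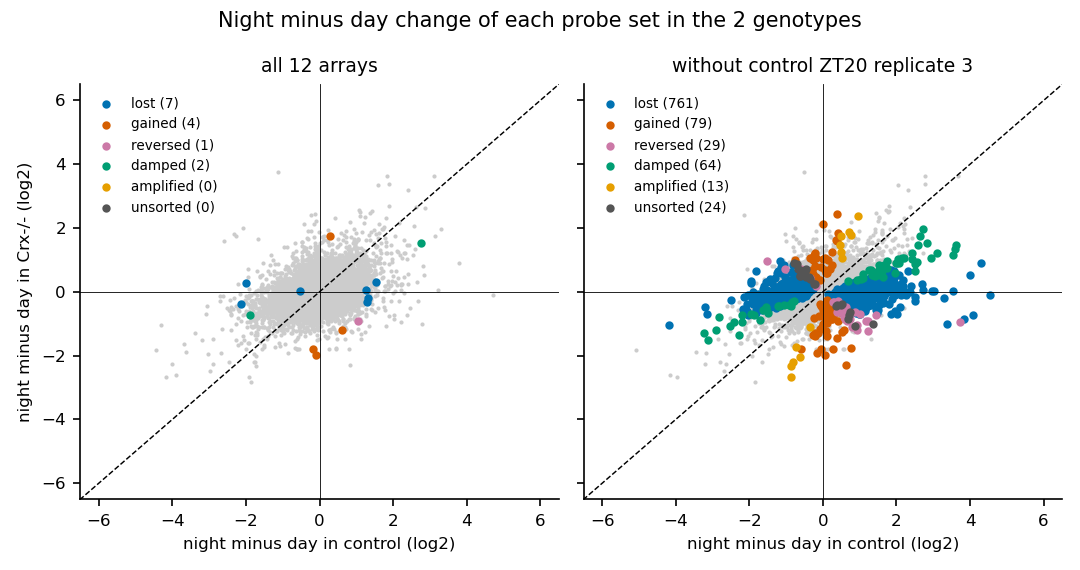
Night minus day change of each probe set in Crx-/- glands (vertical axis, log2) against that in control glands (horizontal axis, log2), with all 12 arrays on the left and without control ZT20 replicate 3 on the right. Grey points were not called for the interaction, coloured points are the sorted calls with their counts, and the dashed line marks equal changes; lost rhythms lie along the horizontal axis.

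**Figure D2:**
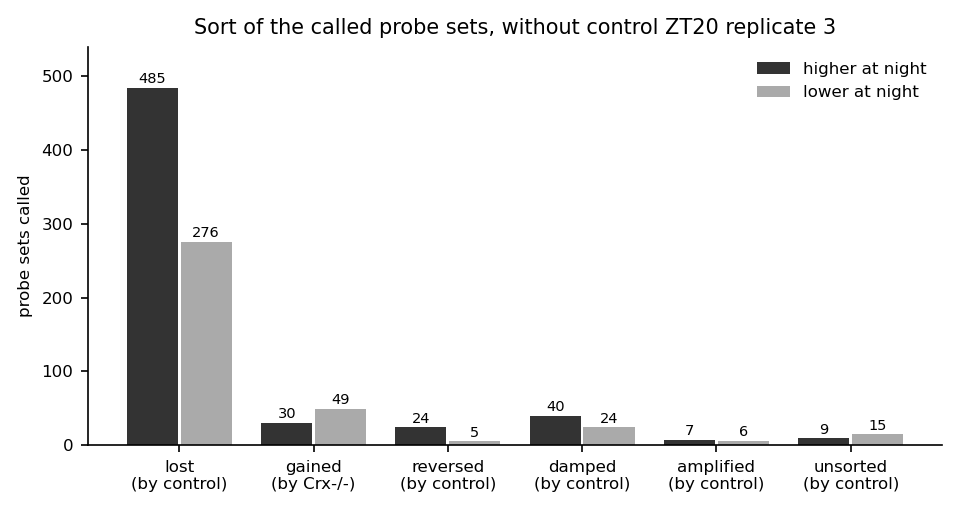
Number of probe sets in each class without control ZT20 replicate 3, split by the direction of the night minus day change in control glands, or in Crx-/- glands for the gained class. The lost class holds 485 night-high and 276 night-low probe sets, and no other bar exceeds 49.

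The level at which Crx-/- glands stayed in lost rhythms varied. For the 485 probe sets that were higher at night in control glands, the Crx-/- mean over both times lay nearer the control day value for 355 and nearer the control night value for 130. It was below both control means for 206, above both for 76 and between them for 203. For the 276 that were lower at night, it lay nearer the control night value for 110 and nearer the control day value for 166.

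Rhythms called with all 12 arrays began with the clock-output gene Dbp, a PAR bZIP transcription factor that the core clock drives with a peak in the day. Its called probe set had log2 signals of 8.65, 8.58 and 8.61 in Crx-/- ZT20, 10.71, 10.80 and 10.30 in Crx-/- ZT6, 9.30, 9.31 and 8.90 in control ZT20 and 9.51, 9.28 and 9.003 in control ZT6. The Crx-/- day arrays were above all others and the Crx-/- night arrays below all others, while the control arrays of both times overlapped. The interaction was -1.90 ± 0.25 (SE; limma, adjusted p = 0.0206) with 12 arrays and -2.04 ± 0.23 (adjusted p = 0.00056) with 11, and the rhythm was sorted as gained. The brighter Dbp probe set had an interaction of -0.95 with 12 arrays (adjusted p = 0.129) and -1.06 with 11 (adjusted p = 0.014; 0.0983 without control ZT20 replicate 1 as well).

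Sphk2, which encodes a sphingosine kinase, showed the same order of groups. Its signals were 9.54, 9.63 and 9.58 in Crx-/- ZT20, 11.57, 11.38 and 11.17 in Crx-/- ZT6, 10.04, 10.03 and 9.66 in control ZT20 and 10.18, 10.09 and 9.98 in control ZT6. The interaction was -1.61 ± 0.19 (limma, adjusted p = 0.0151) with 12 arrays and -1.74 ± 0.16 (adjusted p = 0.000173) with 11. Dbp and Sphk2 overlap on chromosome 7 in the RefSeq annotation (GRCm38.p6), and the second Sphk2 probe set had an interaction of 0.41 with 12 arrays and 0.14 with 11 (limma, adjusted p = 0.579 and 0.645). Whether the first probe set measures Sphk2 or Dbp transcripts was not tested.

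Cpz, a secreted carboxypeptidase, was the 1 reversed rhythm with 12 arrays. It had 8.07, 8.38 and 7.73 in Crx-/- ZT20, 9.24, 8.99 and 8.75 in Crx-/- ZT6, 8.71, 8.64 and 8.21 in control ZT20 and 7.36, 7.49 and 7.55 in control ZT6. No night array overlapped a day array of its own genotype, and the order was opposite in the genotypes. The night minus day change was -0.93 ± 0.20 in Crx-/- and 1.05 ± 0.20 in control glands, and the interaction -1.99 ± 0.28 (SE; limma, adjusted p = 0.0407). It was -2.14 ± 0.26 with 11 arrays (adjusted p = 0.00091).

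The PDZ-domain protein Tax1bp3 and the membrane scaffold Mpp2 were each sorted as a lost night rise. Tax1bp3 had 9.41, 9.46 and 9.66 in Crx-/- ZT20 and 9.21, 9.37 and 8.99 in Crx-/- ZT6, against 10.11, 10.10 and 10.20 in control ZT20 and 8.53, 8.70 and 8.61 in control ZT6. Mpp2 had 9.24, 9.18 and 9.22 in Crx-/- ZT20 and 9.22, 9.29 and 9.004 in Crx-/- ZT6, against 9.31, 9.38 and 9.13 in control ZT20 and 8.06, 7.84 and 8.12 in control ZT6. For both genes all Crx-/- arrays were above the control day arrays. The Crx-/- arrays of Tax1bp3 stayed below the control night arrays, and those of Mpp2 overlapped them. The interaction was -1.20 ± 0.18 for Tax1bp3 and -1.22 ± 0.19 for Mpp2 with 12 arrays (limma, adjusted p = 0.0456 for each), and -1.17 and -1.29 with 11. The night minus day change in Crx-/- glands was 0.32 for Tax1bp3 (95% interval 0.04 to 0.60) and 0.04 for Mpp2 (-0.25 to 0.33) with 12 arrays. The interval of Tax1bp3 lay above 0 though its change did not pass the threshold (limma, adjusted p = 0.321), so a smaller rise may remain.

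Ddc, the decarboxylase that makes serotonin, changed on a dimmer probe set only. That probe set had 10.86, 9.79 and 9.64 in Crx-/- ZT20 and 9.98, 9.79 and 9.68 in Crx-/- ZT6, against 9.66, 9.33 and 9.39 in control ZT20 and 11.39, 11.51 and 11.46 in control ZT6. The control day arrays stood above all 9 others. Its interaction was 2.27 ± 0.35 (limma, adjusted p = 0.0456) with 12 arrays and 2.23 ± 0.36 (adjusted p = 0.0055) with 11, whereas the brightest Ddc probe set gave 0.24 and 0.25 (adjusted p = 0.22 and 0.0956). The remaining calls with 12 arrays had interactions of -1.61 for a probe set of the type I collagen chain Col1a1, 0.56 for the histone H2bc21, 1.15 for the ribosomal oxygenase Riox2 and 1.47 for the microtubule-associated kinase Dclk1. Dclk1 was sorted as gained with 12 arrays and as amplified with 11. Of its 9 kept probe sets 7 were not called with either number of arrays, and 3 of the brighter ones among these had interactions of 0.02, -0.19 and -0.01 with 11 arrays. The 4 probe sets without a single symbol had interactions of -1.80 (gained), -1.53 (lost), -1.23 (damped) and 1.76 (lost).

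**Figure D3:**
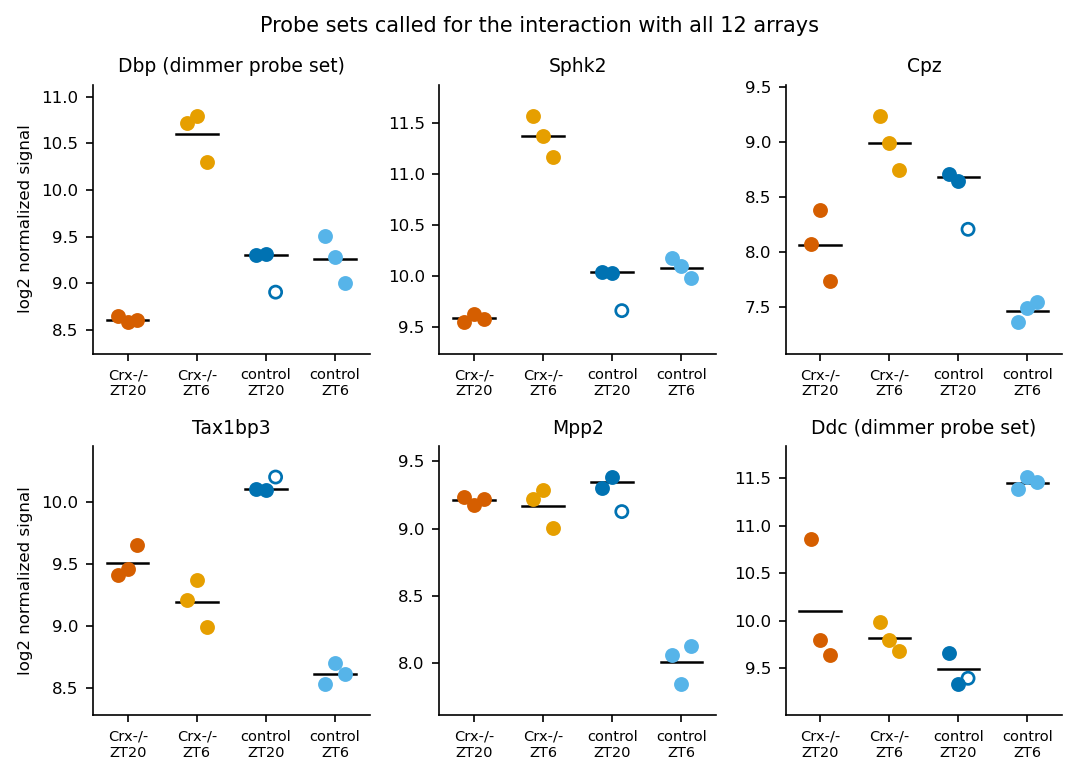
Log2 normalized signal (vertical axis) of 6 probe sets called for the interaction with all 12 arrays, by group. Points are arrays, the open point is control ZT20 replicate 3, and black lines are group means without that array; Dbp and Sphk2 are high in Crx-/- ZT6 alone, and Tax1bp3 and Mpp2 are lowest in control ZT6.

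Among large interactions without control ZT20 replicate 3, Crx-/- glands stood at different levels. In Cckbr, the cholecystokinin B receptor, Crx-/- glands were near the control night level at both times. All Crx-/- arrays lay above control ZT20 replicates 1 and 2, and replicate 3 lay among them. Its signals were 7.98, 7.77 and 7.95 in Crx-/- ZT20, 7.97, 7.95 and 8.09 in Crx-/- ZT6, 7.36, 7.62 and 8.03 in control ZT20 and 2.01, 4.74 and 2.11 in control ZT6. All arrays but the control day ones lay between 7.36 and 8.09. In control ZT6 only 1 of 3 arrays was above background, taken as the highest signal of 27 probe sets for Bacillus control genes. The interaction was -4.64 ± 0.80 (SE; limma, adjusted p = 0.00801) with 11 arrays and -4.82 ± 0.78 (adjusted p = 0.056) with 12. With dimmer values raised to background it was -3.21 with 11 arrays.

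In Evi2a, E2f8, Cpm, St8sia2 and Tunar Crx-/- glands lay near or below the control day level. Evi2a, a membrane protein gene within the Nf1 locus, had 6.93, 7.35 and 7.04 in Crx-/- ZT20 and 8.20, 8.13 and 7.79 in Crx-/- ZT6. Its control values were 11.33 and 11.63 in ZT20 replicates 1 and 2, 6.95 in ZT20 replicate 3, and 7.54, 7.60 and 8.13 in ZT6. Control ZT20 replicates 1 and 2 stood above all other arrays, and replicate 3 lay within the range of the Crx-/- night arrays. The interaction was -4.66 ± 0.28 (limma, adjusted p = 1.27e-05, the lowest of all with 11 arrays) and -3.15 ± 1.24 with 12 (adjusted p = 0.338). Because the Crx-/- change of -0.93 ± 0.19 also passed, Evi2a was sorted as reversed.

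The other 4 of these were sorted as lost, and in each the value of control ZT20 replicate 3 lay within or below the Crx-/- values. E2f8, an E2F family repressor of cell cycle genes, had 5.74, 5.77 and 4.54 in Crx-/- ZT20 and 6.77, 5.88 and 5.599 in Crx-/- ZT6, against 10.54, 9.87 and 5.17 in control ZT20 and 5.49, 6.17 and 6.75 in control ZT6. The interaction with 11 arrays was -4.80 ± 0.62 for E2f8, -4.67 ± 0.42 for the carboxypeptidase Cpm, -3.48 ± 0.36 for the polysialyltransferase St8sia2 and -3.46 ± 0.45 for the long noncoding RNA Tunar (limma, adjusted p up to 0.0013). With 12 arrays the interactions were -3.12, -2.86, -1.90 and -2.30 (adjusted p = 0.404 to 0.61). None of these 4 was called with 12 arrays, where the SE was 1.03 to 1.51.

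Gpr3, a receptor that raises cAMP without a known ligand, and the membrane protein gene Tnmd were dimmest in control glands by day, and their Crx-/- means lay between the control means of day and night. Gpr3 had 6.91, 7.01 and 6.37 in Crx-/- ZT20 and 5.85, 6.10 and 5.62 in Crx-/- ZT6, against 8.22, 8.41 and 6.77 in control ZT20 and 4.15, 3.69 and 4.19 in control ZT6. All 3 control day arrays were at or below background, so its night rise in control glands was at least 17.8-fold with 11 arrays and at least 12.5-fold with 12. The interaction was -3.41 ± 0.39 (limma, adjusted p = 0.00068) with 11 arrays and -2.89 ± 0.56 (adjusted p = 0.0767) with 12. For Tnmd it was -4.40 ± 0.70 (adjusted p = 0.0053) and -3.79 ± 0.83 (adjusted p = 0.11), with 1 of 3 control ZT6 arrays above background.

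Among rhythms with a higher interaction, Npy6r, a neuropeptide Y receptor gene, was sorted as a lost night fall. It had 3.64, 3.94 and 4.73 in Crx-/- ZT20 and 5.38, 4.51 and 5.57 in Crx-/- ZT6, against 3.73, 4.04 and 3.53 in control ZT20 and 7.75, 7.83 and 8.65 in control ZT6. All control night arrays were at or below background, which makes the control day value at least 12.8-fold higher with 11 arrays and at least 15.3-fold with 12. In Crx-/- ZT20 only 1 of 3 arrays was above background, so the night fall has only a bound in both genotypes. The fitted interaction was 3.14 ± 0.60 (limma, adjusted p = 0.0127; 0.0713 without control ZT20 replicate 1 as well) and 3.26 ± 0.61 with 12 (adjusted p = 0.0735). With dimmer values raised to background the interaction was 2.995 with 11 arrays (adjusted p = 0.00767). The adhesion receptor Adgrb3 and the noncoding RNA Particl were likewise sorted as lost night falls, with interactions of 2.45 ± 0.42 and 1.94 ± 0.28 with 11 arrays (adjusted p = 0.00801 and 0.00231) and 1.69 and 1.61 with 12 (adjusted p = 0.391 and 0.132). Their night minus day change in Crx-/- glands was -0.71 and -0.09 with 11 arrays, so a smaller fall of Adgrb3 may remain. All 3 kept probe sets of Particl were called with 11 arrays, with interactions between 1.25 and 1.94. Toporsl was dim outside control ZT6. Its mean in control ZT20 replicates 1 and 2 was 4.29, where the background was 4.37 and 4.42. In Crx-/- glands its means were 4.69 at ZT20 and 4.95 at ZT6, so a night fall there could hardly be seen. Toporsl and Panct2 were also sorted as lost night falls, with 2.24 ± 0.48 and 1.99 ± 0.41 (adjusted p = 0.0237 and 0.0186) with 11 arrays and 2.18 and 1.76 with 12 (adjusted p = 0.12 and 0.155). They lost their calls in 5 and 3 of 11 fits without a further array.

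Reversed rhythms without control ZT20 replicate 3 were 29 probe sets with 22 gene symbols among them, and 6 of the 29 were of Vldlr. Of all 970 calls 613 had a lower interaction. Control glands were higher at night in 24 of the 29 reversed probe sets. Slc15a1, an oligopeptide transporter that is induced at night in the rat pineal gland, ran the other way. It had 8.77, 8.99 and 8.63 in Crx-/- ZT20 and 8.11, 7.72 and 7.68 in Crx-/- ZT6, against 5.64, 6.49 and 8.64 in control ZT20 and 7.46, 7.64 and 7.68 in control ZT6. Night arrays were above day arrays in Crx-/- glands and, for replicates 1 and 2, below them in control glands, with replicate 3 at the Crx-/- night level. The interaction was 2.49 ± 0.32 (limma, adjusted p = 0.00126) with 11 arrays and 1.63 ± 0.75 (adjusted p = 0.419) with 12. The MAP kinase phosphatase Dusp4 and the formin Fhod3 were reversed with interactions of -2.44 ± 0.42 and -2.13 ± 0.23 (adjusted p = 0.00801 and 0.00037), and with 12 arrays they had -2.08 (adjusted p = 0.141) and -0.63 (adjusted p = 0.879).

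Gained rhythms included that of Lrit1, whose protein sits at the photoreceptor terminal in the retina. Its signals were 10.48, 10.65 and 10.87 in Crx-/- ZT20, 8.39, 7.99 and 8.29 in Crx-/- ZT6, 12.18, 12.21 and 10.68 in control ZT20 and 11.86, 11.68 and 11.89 in control ZT6. The Crx-/- day arrays lay below all others, and control ZT20 replicate 3 lay among the Crx-/- night arrays. The night minus day change was 2.44 ± 0.13 in Crx-/- and 0.38 ± 0.14 in control glands with 11 arrays, with an interaction of 2.06 ± 0.19 (limma, adjusted p = 0.00015). With 12 arrays the interaction was 2.57 ± 0.45 (adjusted p = 0.0693). The gene 2810030D12Rik also gained a night rise, with 2.14 ± 0.35 (adjusted p = 0.00633) and 2.55 ± 0.47 with 12 arrays (adjusted p = 0.0726). The potassium channel subunit Kcnip2, the p53-responsive Rprm and the anandamide hydrolase Faah gained a night fall, with interactions of -2.54, -2.94 and -2.07 (adjusted p = 0.0146, 0.00759 and 0.0109). Without control ZT20 replicate 1 as well, the adjusted p was 0.0983, 0.0553 and 0.0553 in that order, and for Faah 0.0551 without replicate 2. With 12 arrays these genes had -2.22, -3.13 and -1.23 (limma, adjusted p = 0.144, 0.056 and 0.561). The control means of Rprm were 4.07 at ZT6 and, with 11 arrays, 4.70 at ZT20. Background on those arrays was 4.09 to 4.21 and 4.37 to 4.42, so a night fall of Rprm in control glands could hardly be seen. With dimmer values raised to background its interaction was -2.70 with 11 arrays.

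Amplified rhythms were led by Chrna6, a nicotinic receptor subunit, and by Gngt1, the gamma subunit of rod transducin. Gngt1 had 8.11, 8.24 and 8.29 in Crx-/- ZT20 and 10.24, 10.56 and 10.46 in Crx-/- ZT6, against 11.10, 11.05 and 8.27 in control ZT20 and 11.91, 11.76 and 11.97 in control ZT6. Night was below day in both genotypes, and control ZT20 replicate 3 lay among the Crx-/- night arrays. The change was -2.21 ± 0.11 in Crx-/- and -0.81 ± 0.12 in control glands with 11 arrays, with an interaction of -1.40 ± 0.16 (limma, adjusted p = 0.00068). With 12 arrays it was -0.46 ± 0.77 (adjusted p = 0.854). All 3 kept probe sets of Gngt1 were called with 11 arrays. Chrna6 had an interaction of -1.43 ± 0.24 with 11 arrays (adjusted p = 0.00794; 0.0567 without control ZT20 replicate 1 as well) and -1.94 with 12 (adjusted p = 0.144). The homeobox gene Prrxl1 and the gap junction gene Gjd2 were amplified with 1.18 ± 0.26 and -0.76 ± 0.13 (adjusted p = 0.0274 and 0.00784), and had 1.91 and -0.36 with 12 arrays (adjusted p = 0.257 and 0.72). Their calls were lost in 7 and 1 of 11 fits without a further array.

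Damped rhythms kept a median of 0.40 of the control change. The potassium channel gene Kcnc1 changed by 1.05 ± 0.16 in Crx-/- and 2.93 ± 0.18 in control glands with 11 arrays, and its interaction was -1.88 ± 0.25 (limma, adjusted p = 0.0013) against -1.19 ± 0.60 with 12 (adjusted p = 0.468). The synaptic adhesion gene Nrxn3 changed by -1.50 ± 0.21 in Crx-/- and -3.12 ± 0.24 in control glands, with interactions of 1.62 ± 0.32 (adjusted p = 0.0146) and 1.70 ± 0.32 with 12 arrays (adjusted p = 0.0726). Its call was lost without control ZT20 replicate 1 or 2 as well (adjusted p = 0.0545 and 0.0717).

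**Figure D4:**
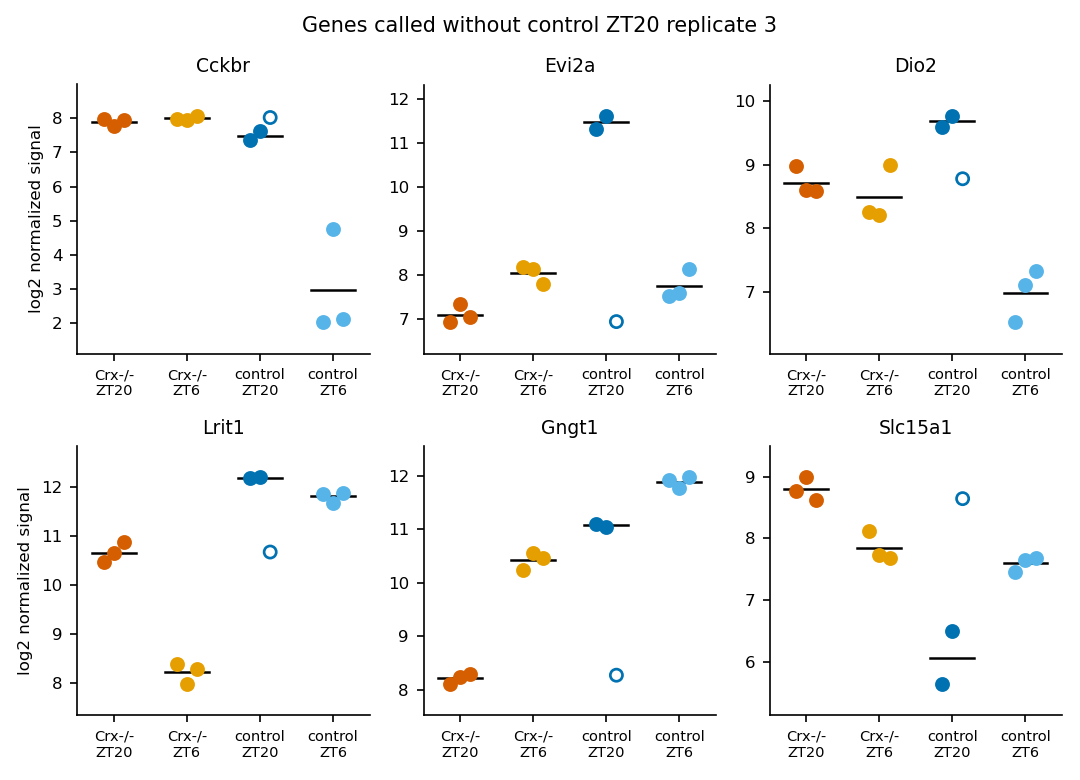
Log2 normalized signal (vertical axis) of 6 genes called for the interaction without control ZT20 replicate 3, by group. Points are arrays, the open point is the array left out and black lines are group means without it; in Evi2a, Lrit1, Gngt1 and Slc15a1 the open point lies at the Crx-/- ZT20 values.

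In the pathway of melatonin the nightly rise of Aanat was of like size in both genotypes. Aanat had 9.52, 9.16 and 9.40 in Crx-/- ZT20 and 6.47, 5.24 and 5.50 in Crx-/- ZT6, against 11.34, 11.05 and 9.52 in control ZT20 and 7.35, 7.34 and 7.88 in control ZT6. Night stood above day on every array of each genotype. The change was 3.63 ± 0.27 in Crx-/- and 3.67 ± 0.30 in control glands with 11 arrays. The interaction was -0.05 with a 95% interval of -0.92 to 0.83 (limma, adjusted p = 0.964), and 0.51 with -0.77 to 1.79 with 12 arrays (adjusted p = 0.778), and differences inside these intervals could not be detected. Tph1, the first enzyme of serotonin synthesis, had an interaction of -0.18 with 11 arrays and 0.01 with 12 (limma, adjusted p = 0.135 and 0.988).

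Gch1 was the 1 called member of 11 tested genes for melatonin and tetrahydrobiopterin enzymes with 11 arrays, where 594 of 12380 genes (4.8%) were called by their brightest probe set. It makes the first step of tetrahydrobiopterin synthesis, the cofactor of tryptophan hydroxylase. Gch1 had 11.83, 12.12 and 12.28 in Crx-/- ZT20 and 12.49, 12.46 and 12.69 in Crx-/- ZT6, against 10.80, 10.53 and 12.16 in control ZT20 and 12.28, 12.15 and 12.22 in control ZT6. Its night fall was -0.47 ± 0.11 in Crx-/- and -1.55 ± 0.12 in control glands, and the interaction 1.08 ± 0.16 (limma, adjusted p = 0.00402). The second Gch1 probe set had -0.13 (adjusted p = 0.571), and with 12 arrays the brightest had 0.58 (adjusted p = 0.636). No member of this list, or of the 20 other lists counted, was called by its brightest probe set with 12 arrays, where 5 of 12380 genes were (0.0404%), 1 higher (0.00808%) and 4 lower (0.0323%).

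Of 28 genes known to be induced at night or by cAMP, 3 were lower and 1 higher in the interaction with 11 arrays, against 3.16% lower and 1.64% higher of all genes. The median interaction was -0.24 in the list and -0.01 over all genes. Dio2, the deiodinase that makes active thyroid hormone and rises nightly in the rodent pineal gland, had 8.98, 8.60 and 8.58 in Crx-/- ZT20 and 8.25, 8.21 and 8.996 in Crx-/- ZT6, against 9.59, 9.77 and 8.78 in control ZT20 and 6.52, 7.12 and 7.33 in control ZT6. All Crx-/- arrays lay between control ZT20 replicates 1 and 2 and the control day arrays. The interaction was -2.46 ± 0.36 (limma, adjusted p = 0.00274), and -2.16 ± 0.42 with 12 arrays (adjusted p = 0.0767). The stress-induced transcription factor Atf3 had 6.91, 7.34 and 6.51 in Crx-/- ZT20 and 7.54, 7.75 and 7.32 in Crx-/- ZT6, against 9.59, 9.48 and 6.77 in control ZT20 and 7.51, 7.46 and 7.79 in control ZT6. Its interaction was -2.56 ± 0.31 (adjusted p = 0.00084) with 11 arrays and -1.64 ± 0.80 with 12 (adjusted p = 0.445). The insulin receptor substrate Irs2 had -1.91 (adjusted p = 0.0147) with 11 arrays and -1.34 with 12 (adjusted p = 0.391). The higher one was Slc15a1.

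Other night genes were not called for the interaction. The cAMP-responsive repressor gene Crem changed by 0.92 ± 0.13 in Crx-/- and 1.25 ± 0.14 in control glands, with an interaction of -0.32 (95% interval -0.73 to 0.08; limma, adjusted p = 0.358) with 11 arrays and 0.24 with 12 (adjusted p = 0.889). Fosl2 and Pde4b had interactions of -0.23 and -0.07 with 11 arrays (adjusted p = 0.422 and 0.86), and -0.14 and 0.05 with 12 (adjusted p = 0.786 and 0.943). None of 19 genes of adrenergic and cAMP signalling was called with 11 arrays, where 4.8% of all genes were, and their median interaction was -0.15.

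Of 11 core clock genes Per1 was lower and Arntl higher in the interaction with 11 arrays, where 3.16% of all genes were lower and 1.64% higher. Per1, a repressor of the clock loop that cAMP also induces, had 8.32, 8.51 and 7.94 in Crx-/- ZT20 and 8.35, 8.17 and 8.17 in Crx-/- ZT6, against 8.74, 8.76 and 8.28 in control ZT20 and 7.45, 7.65 and 7.65 in control ZT6. The Crx-/- arrays of both times overlapped and lay above the control day arrays. Its interaction was -1.13 ± 0.23 (limma, adjusted p = 0.019) with 11 arrays and -0.98 ± 0.26 with 12 (adjusted p = 0.165). The call was lost without control ZT20 replicate 1 or 2 as well (adjusted p = 0.0931 and 0.0736), and without control ZT6 replicate 1 or Crx-/- ZT6 replicate 1 (0.0547 and 0.0511).

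Arntl (Bmal1), an activator of the loop, had 10.24, 9.95 and 10.11 in Crx-/- ZT20 and 9.80, 9.68 and 9.61 in Crx-/- ZT6, against 10.09, 9.99 and 10.20 in control ZT20 and 10.26, 10.37 and 10.40 in control ZT6. The Crx-/- day arrays were below all others. The interaction was 0.70 ± 0.16 (limma, adjusted p = 0.0281) with 11 arrays and 0.65 ± 0.16 with 12 (adjusted p = 0.154), and 6 of 11 fits without a further array lost the call (control ZT6 replicates 1, 2 and 3, control ZT20 replicates 1 and 2, and Crx-/- ZT20 replicate 3, adjusted p = 0.0508 to 0.105). Per2 changed by 0.80 ± 0.15 in Crx-/- and 0.95 ± 0.17 in control glands and was not called (interaction -0.15, 95% interval -0.64 to 0.33), nor was Per3 (-0.01, -0.53 to 0.51). With 12 arrays they had -0.34 and -0.37 (limma, adjusted p = 0.65 and 0.742).

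Of 11 clock output and Rev-erb genes 1, Dbp, was lower with 11 arrays (3.16% of all genes) and none higher (1.64%). Nr1d1 (Rev-erb alpha), a repressor of Arntl, had 8.13, 8.44 and 7.998 in Crx-/- ZT20 and 11.22, 11.15 and 10.71 in Crx-/- ZT6, against 8.51, 7.93 and 8.18 in control ZT20 and 9.95, 10.17 and 10.08 in control ZT6. The night arrays of both genotypes overlapped, and the Crx-/- day arrays were above the control day arrays. The change was -2.83 ± 0.18 in Crx-/- and -1.85 ± 0.20 in control glands. The interaction of -0.99 ± 0.27 did not pass (limma, adjusted p = 0.0602 with 11 arrays and 0.17 with 12), though it passed without Crx-/- ZT6 replicate 3, Crx-/- ZT20 replicate 2 or control ZT20 replicate 2 as well (adjusted p = 0.0265, 0.0462 and 0.0434). By day the Crx-/- arrays of Nr1d1 and of both Dbp probe sets lay above, and those of Arntl below, all control day arrays.

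**Figure D5:**
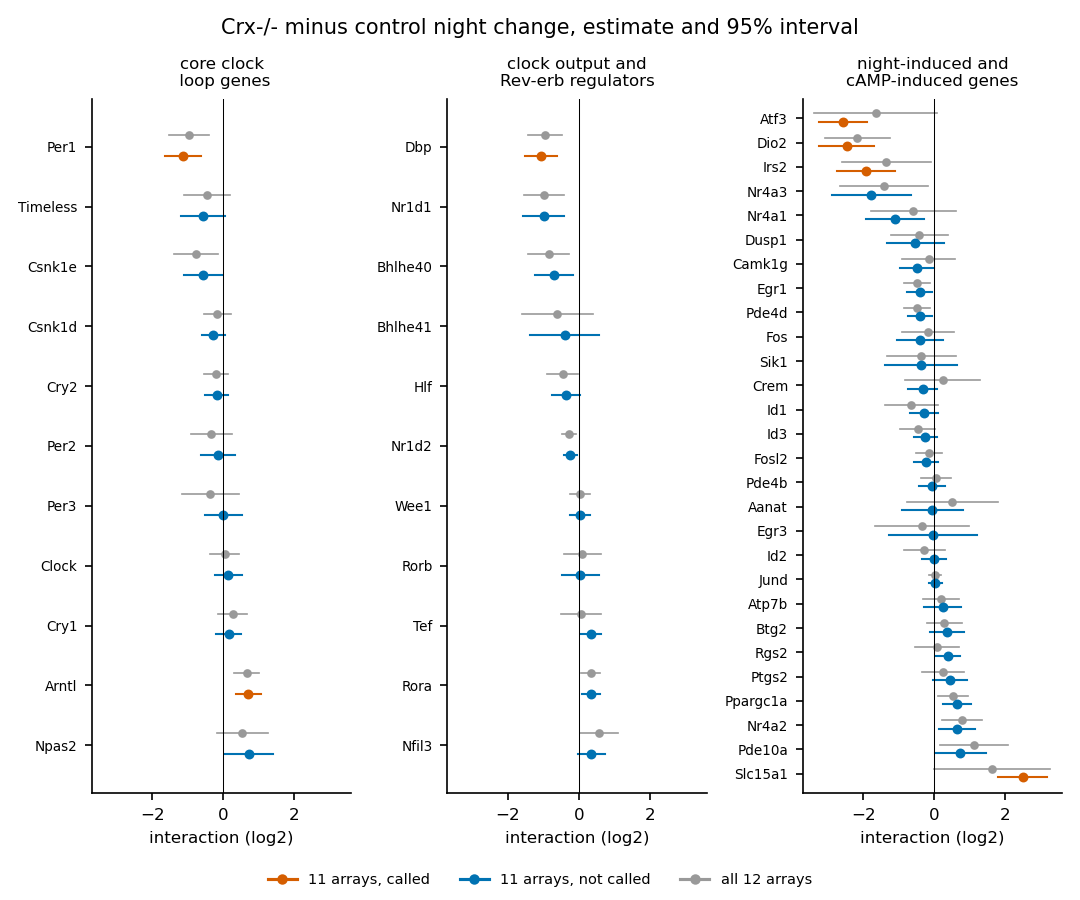
Interaction (horizontal axis, log2, Crx-/- minus control night change) with its 95% interval for core clock genes, clock output genes, and night-induced and cAMP-induced genes, each by its brightest probe set. Orange marks are called and blue marks not called with 11 arrays, and grey marks are the same genes with all 12 arrays, where none was called.

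Phototransduction genes gave 5 lower and 0 higher interactions among 21 tested with 11 arrays (3.16% and 1.64% of all genes), with a median of -0.08. Beside Gngt1 these were the cone arrestin Arr3, the cone channel subunit Cngb3, the encephalopsin Opn3 and the rod phosphodiesterase subunit Pde6g. Cngb3 had 9.13, 9.36 and 9.42 in Crx-/- ZT20 and 10.64, 10.62 and 10.54 in Crx-/- ZT6, against 9.56, 9.46 and 9.39 in control ZT20 and 9.86, 9.80 and 9.50 in control ZT6. Its Crx-/- day arrays stood above all others, and the interaction was -1.08 ± 0.18 (limma, adjusted p = 0.00718; 0.0538 without control ZT20 replicate 1 as well) and -1.04 ± 0.18 with 12 arrays (adjusted p = 0.0696). Arr3, Opn3 and Pde6g had -1.48, -1.41 and -0.45 (adjusted p = 0.0269, 0.0362 and 0.036; Arr3 was lost in 6 of 11 such fits) with 11 arrays and -0.90, -0.997 and 0.04 with 12 (adjusted p = 0.423 to 0.98). Opn3 and Pde6g were not followed singly in fits without a further array, so whether their calls hold there is not known. The dimmer Arr3 probe set had the opposite sign, 1.55 with 11 arrays and 1.31 with 12 (adjusted p = 0.072 and 0.302). Of 16 photoreceptor structure genes none was called.

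Of 17 ribbon synapse genes Lrit1 was higher and the active zone scaffolds Bsn and Rimbp2 lower with 11 arrays, and the counts in this paragraph stand beside 1.64% of all genes higher and 3.16% lower. Bsn had -1.38 ± 0.24 (limma, adjusted p = 0.00894; 0.0611 without control ZT20 replicate 1 as well) and Rimbp2 -1.22 ± 0.28 (adjusted p = 0.0322; lost in 6 of 11 such fits). With 12 arrays they had -1.02 and -1.84 (adjusted p = 0.305 and 0.224). Among 20 pineal and retinal transcription factors Neurod2 was lower (-0.93 ± 0.19, adjusted p = 0.0179) and Neurod4 higher (0.35 ± 0.09, adjusted p = 0.0473). Neurod4 lost its call in 10 of 11 fits without a further array, and Neurod2 in those without control ZT20 replicate 1 or 2 (adjusted p = 0.106 and 0.0512). Of 13 GABA and glycine receptor genes the receptor subunit Gabra3 was lower by -1.44 ± 0.34 (adjusted p = 0.0363; lost in 8 of 11). With 12 arrays Neurod2, Neurod4 and Gabra3 had -1.74, 0.18 and -1.46 (adjusted p = 0.332, 0.704 and 0.12).

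Some markers of other cells were also called for the interaction with 11 arrays. Of 17 meningeal, fibroblast and mural markers tested, of 18 listed, 3 were lower with 11 arrays (3.16% of all genes) and none higher (1.64%), and their median interaction was -0.42. These were the collagen chains Col1a1, Col1a2 and Col3a1, at -0.68 ± 0.13, -0.63 ± 0.10 and -1.16 ± 0.19 (limma, adjusted p = 0.0112, 0.00468 and 0.00615), and with 12 arrays -0.74, -0.70 and -1.44 (adjusted p = 0.0696, 0.0519 and 0.0801). Without control ZT20 replicate 2 as well, Col1a1 had an adjusted p = 0.0578. The summed normalized signal of the list was 68796 to 73089 in Crx-/- ZT20 and 69287 to 73804 in Crx-/- ZT6. In control glands it was 50544, 54638 and 71877 in ZT20 replicates 1, 2 and 3 and 42272 to 42819 in ZT6. In Crx-/- glands the ranges of the times overlapped, and in control glands they did not, with ZT20 replicate 3 within the Crx-/- range. These sums were not tested, nor was their part in the collagen calls.

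Of 13 brain and habenular neuron markers tested, of 17 listed, the neurofilament Nefh and the splicing factor Rbfox1 were lower with 11 arrays (3.16% of all genes), and the list's median was -0.65. Their interactions were -1.56 ± 0.21 and -1.59 ± 0.36 (limma, adjusted p = 0.00186 and 0.0299; Rbfox1 was lost in 7 of 11 fits without a further array), and -0.30 and -2.001 with 12 arrays (adjusted p = 0.941 and 0.141). The list's summed signal was 29886 to 31215 in Crx-/- ZT20 and 29008 to 34115 in Crx-/- ZT6. In control glands it was 39073, 38989 and 29977 in ZT20 replicates 1, 2 and 3 and 37429 to 38763 in ZT6. A sum of linear signals follows its brightest genes, so it does not measure neuron content. Among neuron markers Snap25 and Chrnb4 were bright on every array (log2 13.6 to 13.8 and 12.0 to 13.1). Nefl, Nefm and Rbfox3 reached at most 8.99, 8.0 and 9.5. Of the astrocyte, choroid plexus and cell cycle lists, with 12, 8 and 16 genes tested, 2, 1 and 1 genes were lower (3.16% of all genes). The medians of these lists were -0.14, 0.28 and -0.006 with 11 arrays, so the choroid plexus median had the opposite sign to its called gene, Aqp1. No other kept probe set of the astrocyte genes Gja1 (-0.71 to 1.33 with 11 arrays) and Slc1a2 (-0.79 and -0.64) was called. The called genes Gja1, Slc1a2, Aqp1 and Pcna had interactions of -0.32, -1.03, -0.98 and -0.62 with 11 arrays and -0.49, -0.76, -0.999 and -0.39 with 12. These lost their calls in 10, 8, 3 and 1 of 11 fits without a further array. No member was called among the oligodendrocyte, microglial, endothelial, erythrocyte, interferon and heat shock lists, with 5, 14, 14, 3, 20 and 18 genes tested. With 11 arrays 4.8% of all genes were called.

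Genes measured by several probe sets were compared across them, which is no independent check, since all probe sets share the same arrays. Of 424 genes with a called and at least 1 further kept probe set, 80.4% had the same sign on all kept probe sets with 11 arrays, against 55.6% of all 5272 genes with several. The 424 were picked by a call that is itself counted here, so the 2 shares are not alike. At least 2 probe sets were called in 97 of the 424 genes with 11 arrays and in 0 genes with 12. In 55 genes every kept probe set was called with 11 arrays, and in 1 of these, Cdkl3, the signs were opposite (-0.79 and 1.16). The lipoprotein and reelin receptor Vldlr had 6 such probe sets, with interactions from -1.91 up to -1.11 (limma, adjusted p of each at most 0.00037), and all were sorted as reversed. With 12 arrays the same probe sets had -1.48 up to -0.81 (adjusted p = 0.0767 to 0.239), so none was called.

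At least 1 of the motifs searched was held by 10 of 56 named genes with a promoter. Promoters, chosen among those that do, are shown for a lost rhythm near the night level (Cckbr), a lost rhythm of a cAMP-induced gene (Dio2), a lost clock rhythm (Per1) and a gained photoreceptor gene (Lrit1). Each runs 5' to 3' over 300 bases ending 50 after the annotated start, from RefSeq on GRCm38.p6, and capitals mark the motifs found: Cckbr at chr7:105425481-105425780 (plus strand), Dio2 at chr12:90738989-90739288 (minus), Per1 at chr11:69098699-69098998 (plus, the first of its annotated starts) and Lrit1 at chr14:37054580-37054879 (plus).
Cckbr: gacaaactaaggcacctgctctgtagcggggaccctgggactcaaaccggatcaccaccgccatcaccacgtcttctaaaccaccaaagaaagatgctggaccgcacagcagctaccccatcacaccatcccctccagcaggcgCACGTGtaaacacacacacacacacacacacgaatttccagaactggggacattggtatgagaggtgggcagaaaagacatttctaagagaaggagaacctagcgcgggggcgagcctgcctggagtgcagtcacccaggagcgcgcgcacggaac
Dio2: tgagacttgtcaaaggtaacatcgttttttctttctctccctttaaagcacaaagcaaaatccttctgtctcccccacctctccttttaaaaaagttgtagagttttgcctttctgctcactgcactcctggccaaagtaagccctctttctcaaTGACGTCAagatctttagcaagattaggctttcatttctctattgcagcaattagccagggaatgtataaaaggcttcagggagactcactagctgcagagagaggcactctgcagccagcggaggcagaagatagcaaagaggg
Per1: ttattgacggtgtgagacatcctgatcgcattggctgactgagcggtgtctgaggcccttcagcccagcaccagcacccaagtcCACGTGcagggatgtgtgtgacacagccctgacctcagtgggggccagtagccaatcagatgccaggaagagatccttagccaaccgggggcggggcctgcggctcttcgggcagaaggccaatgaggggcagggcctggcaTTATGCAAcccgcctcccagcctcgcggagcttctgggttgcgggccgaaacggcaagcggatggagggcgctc
Lrit1: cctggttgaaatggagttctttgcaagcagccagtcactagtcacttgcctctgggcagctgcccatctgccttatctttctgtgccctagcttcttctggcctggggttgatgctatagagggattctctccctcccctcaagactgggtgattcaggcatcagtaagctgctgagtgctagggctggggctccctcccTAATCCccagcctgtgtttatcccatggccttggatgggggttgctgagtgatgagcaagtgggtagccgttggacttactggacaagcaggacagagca

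The motifs searched on both strands were the cAMP response element TGACGTCA, the E-box CACGTG bound by clock factors, the D-box TTATGNAA bound by Dbp and its relatives, and the Crx core TAATCC. Cckbr held 1 E-box, Dio2 1 cAMP response element, Per1 1 E-box and 1 D-box, and Lrit1 1 Crx core. Of the 373 genes sorted as lost with a promoter in the table, 3.22% held the cAMP response element, 14.2% the E-box, 2.68% the D-box and 8.58% the Crx core. Of the 42 gained genes with a promoter 4.76% held the cAMP response element, and 7.14% held each of the other motifs. Over 10007 tested genes with a promoter the shares were 3.54%, 11.5%, 2.38% and 7.27%. A match describes letters in this window and no more.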

How the data were processed

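Pineal RNA (100 ng amplified with NuGEN Ovation V2) was hybridised to Affymetrix mouse genome arrays, per the labels' protocols. The authors deposited linear signal intensities per probe set made with GCOS, per the labels' protocols, whose version is not given in the sources used here. Their lists of genes that differed between genotypes were not used. From the deposited intensities, 64 control features were left out, arrays were quantile-normalized and log2(signal + 3.4) was taken, the offset being the 10th percentile. Probe sets at or above the 50th percentile on at least 3 arrays were kept. Normalization, offset and filter used all 12 arrays for both fits. Control ZT20 replicate 3 was left out of the limma step only. Limma 3.58.1 (R 4.3.3; lmFit, contrasts.fit, eBayes with trend) fitted the 4 group means, with Benjamini-Hochberg adjustment over 24275 probe sets and a threshold of 0.05. Errors are standard errors. Of the kept probe sets 21078 had 1 gene symbol, 590 several and 2607 none. The fit was tested on simulated data.

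A gene stands for its brightest kept probe set. Candidates for naming were the 8 genes of largest interaction in each direction, up to 5 in each class and up to 3 called members of each list. Up to 6 genes called most firmly in both fits were added. A fixed set was added too: Crx, Aanat, Crem, Dio2, Per1, Per2, Per3, Arntl, Nr1d1, Dbp, Cckbr, Hoxc4 and Tph1. The text gives only some of these candidates. Others were chosen after their values were seen. Members and lists were chosen with earlier results of these data known. Alternatives covered scaling, offset, filter, 1 probe set per gene, background, variance model, array weights, a replicate block and leaving out arrays. Asmt and Adrb1 are not analysed here.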

Additional observations from a re-analysis of the deposited data

Results flagged for a closer look

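The day to night change differed between the genotypes by the interaction test (limma) with all 12 arrays for 14 probe sets, as log2 differences of the Crx-/- change minus the control change. It was lower in Cpz (-1.986), Dbp (-1.903), Sphk2 (-1.614), Col1a1 (-1.608), Mpp2 (-1.22) and Tax1bp3 (-1.203). It was higher in Ddc (2.269), Dclk1 (1.466), Riox2 (1.146) and H2bc21 (0.5613). The 4 probe sets with no single symbol had -1.798, -1.526, -1.23 and 1.756. With 3 arrays a group, single values were not tested for outliers.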

How the results depend on the processing

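With all 12 arrays (14 interaction calls, 302 night changes in Crx-/- and 2986 in control glands, 50% of calls lost), deposited signals gave 4, 88 and 664, a common trimmed mean 8 interaction calls and an offset of 32 gave 32. With 1 probe set per gene there were 29 interaction calls, 194 Crx-/- night changes and 79.31% lost. Array weights, which gave control ZT20 replicate 3 a weight of 0.1234, yielded 2105, 1073 and 9200 calls and 82.04% lost. Leaving out 1 array gave 0 to 970 interaction calls, 152 to 1134 Crx-/- and 1382 to 4823 control night changes, and 52% to 100% lost. With 11 arrays (970, 1134, 4823 and 78.45%), deposited signals gave 593 interaction calls and 387 Crx-/- night changes, and a common trimmed mean 81.53% lost. The stricter filter gave 3116 control night changes. With 1 probe set per gene there were 754 Crx-/- and 3108 control night changes, and with array weights 1690 interaction calls. The lost share was 38.97% when a rhythm was a change of at least 1 and 64.43% at an adjusted p under 0.2. Leaving out 1 more array gave 212 to 1221 interaction calls, 667 to 1282 Crx-/- and 2268 to 5436 control night changes, and 70.75% to 83.42% lost. With the replicate number as a block there were 6 interaction calls with 12 arrays and 606 with 11, of which 6 and 591 were among the calls without it. The deviations of 18 same-numbered pairs correlated at -0.374 to 0.281, and those of 36 other pairs at -0.427 to 0.403. The log2 background level was lowest on replicate 3 of control ZT20, Crx-/- ZT20 and Crx-/- ZT6 (3.65, 3.67 and 3.92). It was 4.19 on replicate 3 of control ZT6. Whether arrays of the same number shared a batch was not tested. The causes were not tested. Of 72 probe sets named and called with 11 arrays, 37 stayed called in every fit without a further array and 38 on deposited signals, and of the 14 called with 12 arrays 0 and 1 did. No interaction called with 12 or with 11 arrays changed sign under the settings run for its own fit. Of the values not called with 11 arrays, Aanat (-0.05) took the other sign under 7 settings, Per2 (-0.15) under 1 and Per3 (-0.01) under 8, up to 0.32, 0.25 and 0.37. The number of arrays and signals near background limit what could be detected.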
